A study of Homo sapiens with 4 samples.

Results

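Small nucleolar RNAs (snoRNAs) and the related RNAs of Cajal bodies were read here from a gene table of primed human embryonic stem cells of the established line H9. The genes were taken by their listed biotype, snoRNA, which 64 of the 16174 genes in the table carry. By name, 37 are SNORA genes, 26 are SNORD genes and 1 is a SCARNA gene (SCARNA12). Another 11 SCARNA genes have the biotype scaRNA and were used for comparison. Each of the 64 had a read in at least 1 library. Of the 125 genes listed as snoRNA, scaRNA, snRNA, misc_RNA or mitochondrial tRNA, 0 were at 0 in all 4 libraries, so an entry among them goes with a read. GENCODE release 29 holds 943 snoRNA genes, and those without an entry are not analysed here.

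The study asked what repression of the long non-coding RNA gene SNHG26 does to these cells. In all 4 libraries the cells held a vector for dCas9-KRAB (a Cas9 that binds DNA without cutting it, joined to a transcriptional repressor) under doxycycline control. It had been integrated with a transposase and selected with puromycin, and all cells were given doxycycline. One arm (CRISPRi TetO dCas9 with SNHG26 target guides) received 4 pooled guides, and the other (CRISPRi TetO dCas9 with control non-targeting guides) received control guides. RNA was taken after 2 or 3 days, with 1 library per arm and day, so the 2 libraries of an arm are of different days. Nothing in the labels says whether the days came from separate cultures. With its guides, SNHG26 was listed at 0 (day 2) and 0.933 TPM (day 3), where TPM is the length-scaled transcript level deposited. With control guides it stood at 2.98 and 4.03 TPM. Of 11 markers of pluripotent cells, 10 were listed and all 10 had a value in every library, with sums from 1736 to 2131 TPM. Listed markers of other cells (2 of 5 neuroectoderm, 2 of 6 mesendoderm, 2 of 7 amnion and 2 of 5 fibroblast genes) summed to 17.1 to 24.5, 0 to 1.98, 0 to 1.29 and 7.95 to 11.9 TPM, with OTX1, EOMES and ISL1 at 0.

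SnoRNAs guide chemical changes of ribosomal RNA in the nucleolus. Box C/D snoRNAs, mostly named SNORD, direct ribose methylation by fibrillarin (FBL). Box H/ACA snoRNAs, mostly named SNORA, direct pseudouridylation by dyskerin (DKC1). Small Cajal body RNAs do the same for the RNAs of the spliceosome. In human cells most are cut out of the introns of a host gene and trimmed, and the mature RNA usually has no poly(A) tail. The libraries were primed with oligo-dT, so the reads described here are those that such a protocol caught, and they give no measure of the mature snoRNA pool. In bulk RNA, fewer cells that make an RNA and less of it per cell cannot be told apart.

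The 12 genes with a read in every library carry most of the signal, and the sequences of 10 of them are shown to set the 2 families side by side. SNORA31B and SNORA67 are left out because they overlap untranslated regions of host transcripts. All 64 entries matched a GENCODE release 29 gene on GRCh38 by chromosome, start, end and strand, and 62 also by name. The sequences are GENCODE's, in DNA letters from 5′ to 3′. In the H/ACA genes below, capitals mark the letters ACA lying 3 bases before the 3′ end, where the ACA box sits.

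SNORA11F: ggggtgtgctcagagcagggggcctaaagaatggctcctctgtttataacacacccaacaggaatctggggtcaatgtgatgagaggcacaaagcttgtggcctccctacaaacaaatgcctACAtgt
SNORA26: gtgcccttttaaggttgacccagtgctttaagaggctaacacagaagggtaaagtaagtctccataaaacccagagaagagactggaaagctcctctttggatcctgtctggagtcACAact
SNORA73B: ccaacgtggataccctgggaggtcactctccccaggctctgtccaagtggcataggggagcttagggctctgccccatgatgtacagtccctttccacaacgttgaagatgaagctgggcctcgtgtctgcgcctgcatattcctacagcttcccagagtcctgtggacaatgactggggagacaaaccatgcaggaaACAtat
SNORA21: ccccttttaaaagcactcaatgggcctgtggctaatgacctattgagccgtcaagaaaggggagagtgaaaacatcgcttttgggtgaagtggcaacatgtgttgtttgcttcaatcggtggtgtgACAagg
SNORA24: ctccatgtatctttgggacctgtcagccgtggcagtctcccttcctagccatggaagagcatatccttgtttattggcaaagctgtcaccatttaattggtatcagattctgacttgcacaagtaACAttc
SNORA12: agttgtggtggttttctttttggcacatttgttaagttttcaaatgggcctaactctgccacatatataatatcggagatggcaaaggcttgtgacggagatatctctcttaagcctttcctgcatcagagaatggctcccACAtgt
SNORA58: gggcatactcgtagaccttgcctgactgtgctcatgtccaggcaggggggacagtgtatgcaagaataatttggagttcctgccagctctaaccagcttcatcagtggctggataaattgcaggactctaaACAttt

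SNORA11F lies at chr10:73126080-73126207 (minus strand), between genes on its own strand and opposite NUDT13. SNORA26 (chr4:52713249-52713370, plus strand) lies in an intron of DANCR, and SNORA73B (chr1:28508559-28508762, plus strand) in an intron of SNHG3 that also lies within RCC1. SNORA21 (chr17:38852863-38852994, minus strand) is intronic to RPL23 messenger RNA but exonic in a retained-intron transcript. SNORA24 (chr4:118279190-118279320, plus strand) is exonic in an SNHG8 transcript. SNORA12 (chr10:100237156-100237302, minus strand) and SNORA58 (chr3:131479097-131479233, minus strand) are intronic to CWF19L1 and MRPL3. Of the 37 SNORA entries, 30 (81.1%) have ACA at that position, against 75.8% of 149 SNORA genes in GENCODE and 1.44% of 278 SNORD genes.

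In the C/D genes, capitals mark TGATGA (C box) within the first 20 bases and CTGA (D box) within the last 20 bases, searched on the RNA's own strand.

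SNORD116-2: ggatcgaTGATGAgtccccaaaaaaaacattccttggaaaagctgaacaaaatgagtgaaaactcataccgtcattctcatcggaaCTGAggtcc
SNORD116-29: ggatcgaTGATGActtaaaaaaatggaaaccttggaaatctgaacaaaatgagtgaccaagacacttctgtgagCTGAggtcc
SNORD45A: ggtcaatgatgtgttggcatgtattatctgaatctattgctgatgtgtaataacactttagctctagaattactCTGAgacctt

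SNORD116-2 (chr15:25054210-25054304, plus strand) and SNORD116-29 (chr15:25106521-25106603, plus strand) are intronic to SNHG14, in the imprinted region deleted in Prader-Willi syndrome. SNORD45A (chr1:75787889-75787972, plus strand) lies in RABGGTB, where it is exonic in a non-coding transcript. Both motifs were found in 18 of the 26 SNORD entries (69.2%), against 67.3% of the SNORD genes in GENCODE and 0% of the SNORA genes. TGATGA was found in 19 of the 26 and CTGA in 25. SNORD116-2 holds a run of 8 A and SNORD116-29 one of 7 A, while the 7 H/ACA genes above hold runs of at most 4 A. The median longest A run was 3 bases in the SNORA entries and 4 bases in the SNORD entries, close to the 3 and 3.50 bases of the GENCODE genes without an entry. SCARNA12, the 1 SCARNA gene with the biotype snoRNA, has both C/D motifs and no ACA at the stated position.

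The deposited TPM divides reads by gene length, and 1 read was therefore worth 72.9 TPM (day 2) and 65.3 TPM (day 3) on 100 bases in the SNHG26-guide libraries, and 80.3 and 67.2 TPM in the control libraries. With this unit all 64 genes came out as whole reads in every library, within 0.0001 read. The genes are 69 to 270 bases long, and 1 read is worth more TPM on a shorter gene. A count of 0 allows up to 3 reads, or 196 to 241 TPM on 100 bases. The reads were amplified and carry no molecular identifiers, so intervals and floors below cover counting error only.

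In all, 537 reads fell on the 64 genes. The SNHG26 guides gave 117 (day 2) and 104 (day 3), and the control guides gave 127 and 189. They covered 31, 25, 28 and 35 genes in that order. These reads made up 0.715% and 0.598% of the listed TPM with the SNHG26 guides, against 0.857% and 1.08% with the control guides. The 37 SNORA genes took 425 reads (79.1%), the 26 SNORD genes 109 (20.3%) and SCARNA12 3.

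A few genes held most of the signal. SNORA31B alone had 126 reads (23.5%), and the 4 highest, SNORA31B, SNORA11F, SNORA26 and SNORA67, had 299 (55.7%), all of them SNORA genes. The 12 genes with a read in every library held 83.2%. At the other end, 38 genes had reads in a single library, and 34 had 1 read in all. Of the 38, 6 and 7 were read in the SNHG26-guide libraries of day 2 and day 3, and 12 and 13 in the control libraries. The 49 genes outside the 15 highest had 72 reads between them, never more than 3 in a library.

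**Figure D1:**
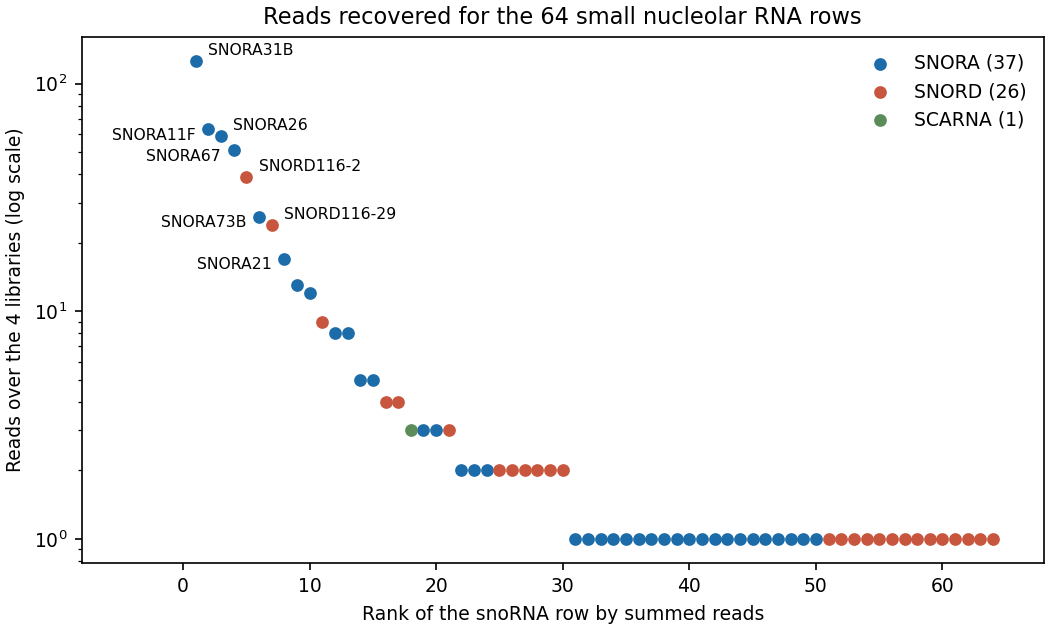
Reads summed over the 4 libraries (log axis) against rank for the 64 snoRNA genes, 1 point per gene, coloured by family. SNORA31B leads with 126 reads, and 34 genes lie on the floor of 1 read.

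Libraries shared the high genes and differed in the rest. Across the 64 genes, the Pearson correlation of log2(reads + 1) between libraries ran from 0.729 to 0.800 and the Spearman correlation from 0.319 to 0.588 (6 pairs). Genes are not independent replicates, and the libraries share the few high genes. Between 13 and 22 genes had a read in both libraries of a pair.

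SNORA31B had 28 reads (1523 TPM) and 23 reads (1121 TPM) in the SNHG26-guide libraries of day 2 and day 3, and 30 reads (1798 TPM) and 45 reads (2255 TPM) in the control libraries. It was highest in the day 3 control library, and the arms did not overlap in TPM. It is a copy of the H/ACA family named SNORA31, at chr13:45336314-45336447 on the minus strand. Its whole length lies inside an untranslated region of 2 protein-coding transcripts of TPT1. TPT1 encodes translationally controlled tumour protein and stood at 4473 TPM on average. Whether reads of those transcripts were assigned to SNORA31B was not tested. TPT1 itself was listed at 4847 and 4012 TPM under SNHG26 guides, against 4718 and 4314 TPM under control guides.

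For SNORA11F, the reads were 9 and 13 in the SNHG26-guide libraries of day 2 and day 3 and 17 and 24 in the control libraries (513, 663, 1067 and 1259 TPM). Both control libraries were above both SNHG26-guide libraries. SNORA11F has no gene of the table around it on its strand. Among the other entries, SNORA11C shares 86.8% of aligned positions with it and SNORA11G 76.7%, and these had 1 and 3 reads.

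SNORA26, known to guide pseudouridylation of the large-subunit rRNA, had 19 and 13 reads in the SNHG26-guide libraries and 15 and 12 in the control libraries (1135, 696, 988 and 661 TPM). Both day 2 libraries were above both day 3 libraries, and the arms overlapped. Its host DANCR, a non-coding RNA, averaged 1662 TPM.

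SNORA67, a guide for the small-subunit rRNA, had 6 and 9 reads with the SNHG26 guides and 12 and 24 with the control guides (319, 429, 704 and 1177 TPM). The arms did not overlap. It lies at chr17:7577955-7578091 (plus strand) within EIF4A1, which encodes a translation initiation helicase. There it is intronic to the main messenger RNA but exonic in retained-intron and nonsense-mediated decay transcripts.

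SNORA21, a guide for the large-subunit rRNA, had 1 and 2 reads with the SNHG26 guides and 3 and 11 with the control guides (55.2, 99.0, 183 and 559.7 TPM). The day 3 control library held 11 of its 17 reads. SNORA73B, also called U17, acts in the cleavage of the small-subunit rRNA precursor and has no known modification target. It had 10 and 2 reads with the SNHG26 guides and 8 and 6 with the control guides. Its low library was day 3 of the SNHG26 guides, and the arms overlapped.

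SNORA24, a guide for the small-subunit rRNA, had 4 and 1 reads with the SNHG26 guides and 4 and 4 with the control guides. SNORA12 had 5 and 1 against 2 and 4. SNORA58, a guide for the large-subunit rRNA, had 1 and 1 against 5 and 1. In SNORA24 and SNORA58 the libraries differ through 1 of them, and in SNORA12 the arms and days overlap. Another 3 of the 15 highest were missing from the day 2 control library. SNORA51, SNORA7A and SNORA80A were at 0 there and had 1 to 4 reads in each of the other libraries. SNORA7A differs from SNORA7B at few positions (98.6% identical), so their reads are uncertain.

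Among the SNORD genes, the SNORD116 cluster stood out by number. These C/D RNAs have no known rRNA target and are made from the paternal copy of chromosome 15, in introns of SNHG14. The table lists 11 of them between 25051477 and 25106603 on chromosome 15, with 78 reads (17, 20, 15 and 26 in the order used above). Of these, SNORD116-2 had 39 reads and SNORD116-29 had 24, and the other 9 had 4 or fewer each.

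SNORD116-2 had 8 and 16 reads with the SNHG26 guides and 6 and 9 with the control guides (614, 1100.0, 507 and 636 TPM). It was highest in the day 3 SNHG26-guide library. SNORD116-29 had 4 and 3 reads with the SNHG26 guides and 6 and 11 with the control guides (351, 236, 581 and 890.1 TPM), and its arms did not overlap. These 2 genes of the cluster were high in different libraries. SNHG14, listed over the whole cluster, was lowest in the day 3 SNHG26-guide library, at 78.0 TPM against 166, 179 and 176 TPM in the other libraries (log2 difference between the arms -0.64, SE 0.41, limma adjusted p 0.935).

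The copies are near-identical in part. SNORD116-2 shares 99.0% of aligned positions with SNORD116-6 and 95.8% with SNORD116-1, while SNORD116-29 shares 69.6% to 76.1% with the other 10 listed. Reads of SNORD116-2 and its closest copies can therefore be exchanged in mapping, and how the counting treated them is not given in the sources used here. SNORD45A, a methylation guide for the small-subunit rRNA, had 1 and 3 reads with the SNHG26 guides and 2 and 3 with the control guides. It was the only SNORD gene outside the SNORD116 cluster with a read in every library.

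**Figure D2:**
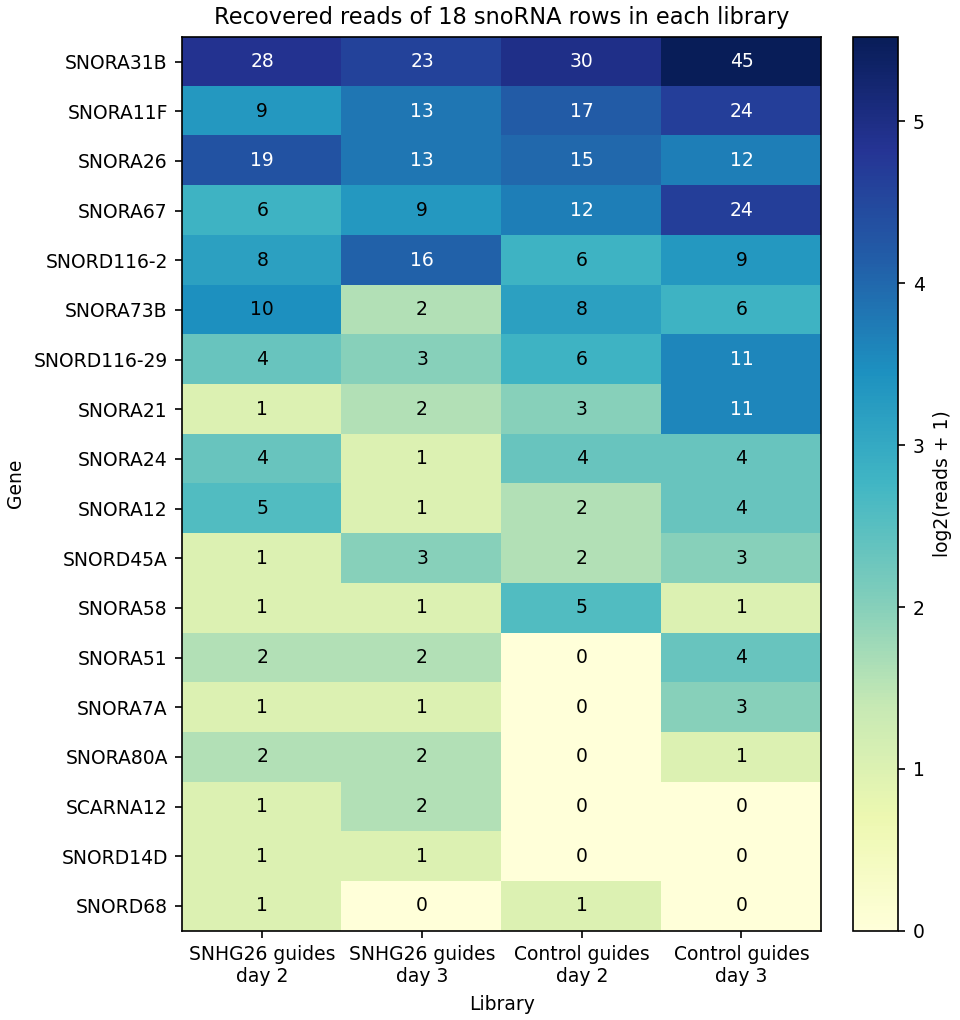
Recovered reads of 18 snoRNA genes (the 15 highest, and 3 with reads in both libraries of 1 arm or day and 0 in the other 2) in each library, with colour for log2(reads + 1). SNORA31B ranges from 23 to 45 reads, and SCARNA12, SNORD14D and SNORD68 hold at most 2.

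The comparison of the arms asks whether snoRNA genes moved with SNHG26 repression. Of the 64 genes, 0 passed a limma adjusted p of 0.05, as did 0% of the 8274 genes tested (mean of at least 1 TPM, on log2(TPM + 1)). At an unadjusted p under 0.05 there were 7 of the 64 snoRNA genes, beside 337 of the 8274 genes tested (4.07%). Of the 7, 5 were lower with the SNHG26 guides. SNORD14D and SCARNA12 were higher, on 1 or 2 reads per library against 0. In 5 of the 64 (7.81%) both SNHG26-guide libraries lay below both control libraries, where the share over all genes tested was 13.2%. The 5 were SNORA31B, SNORA11F, SNORA67, SNORA21 and SNORD116-29. Only 3 genes lay the other way (4.69%, beside 16.1% of all genes): SNORA80A, SCARNA12 and SNORD14D. A gene at 0 in a library of each arm cannot be apart in this way, which holds for the 38 genes read in a single library. Lower values on both days, without regard to overlap, were found in 10 of the 64 (15.6%), beside 21.8% of all genes. Among the 10, SNORA24, SNORA58, SNORD45A and SNORD116-6 had equal reads in the arms on 1 of the days. There only the TPM worth of 1 read sets the arms apart.

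SNORA11F averaged 588 ± 107 TPM (SD, n = 2) with the SNHG26 guides and 1163 ± 136 TPM (SD, n = 2) with the control guides, a log2 difference of -0.99 (SE 0.19) in limma with an adjusted p of 0.538. For SNORA67 the means were 374 ± 77.6 and 940 ± 334 TPM (log2 difference -1.30, SE 0.32, limma adjusted p 0.865). SNORD116-29 had 294 ± 81.5 and 735 ± 219 TPM (-1.32, SE 0.32, limma adjusted p 0.852). The remaining differences were -0.62 (SE 0.21) for SNORA31B and -2.10 (SE 0.65) for SNORA21, both with a limma adjusted p of 0.935. None of the 5 passed. Each was lower on both days, which follows from picking genes whose arms did not overlap and adds nothing to it. SNORA31B differed little on day 2 (-0.24) and more on day 3 (-1.01).

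Against these, SNORD116-2 stood at 857 ± 344 TPM under SNHG26 guides against 572 ± 91.2 TPM under control guides (log2 difference 0.53, SE 0.34, limma adjusted p 0.935). SNORA26 had 916 ± 311 and 824 ± 231 TPM (0.14, SE 0.34, limma adjusted p 0.998). For both, the difference was within the spread between the libraries. SNORD14D, of the U14 family needed for small-subunit rRNA maturation, had 1 read in each SNHG26-guide library and 0 in the control libraries (limma adjusted p 0.0917). SCARNA12 had 1 and 2 reads against 0 and 0 (limma adjusted p 0.168). Both sets of counts are at or below the floor of 3 reads, and no fold is given. SNORD14D lies inside an untranslated region of an HSPA8 transcript, and HSPA8 was at 894 and 934 TPM under SNHG26 guides against 821 and 453 TPM under control guides. Its part in the SNORD14D reads was not tested.

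**Figure D3:**
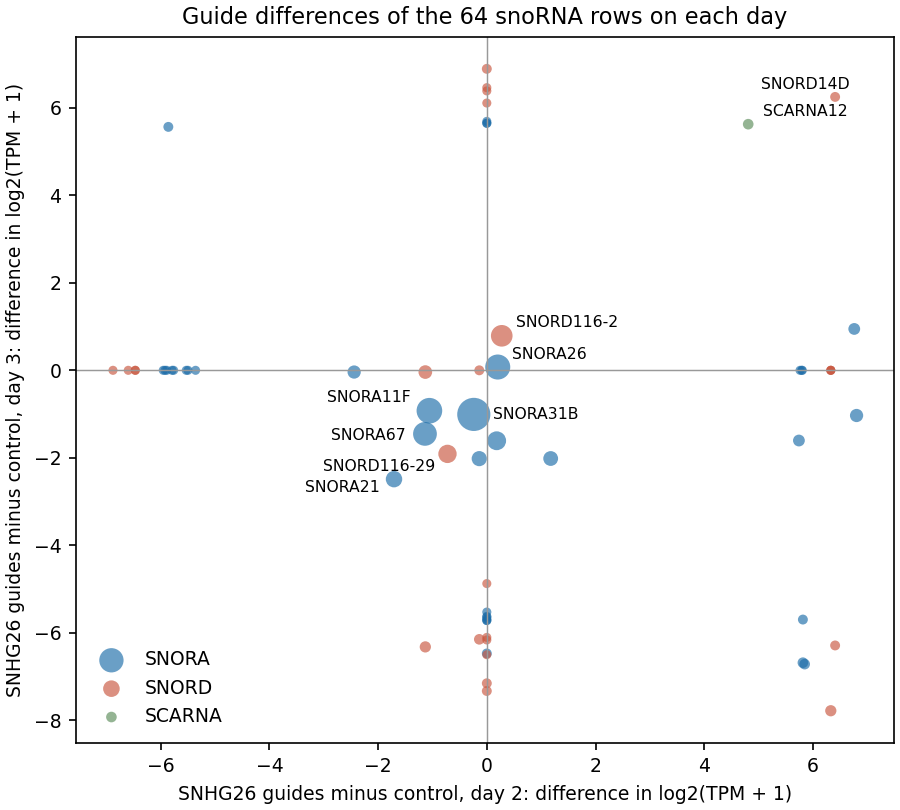
Difference in log2(TPM + 1) between the SNHG26-guide and control libraries on day 2 (horizontal) and day 3 (vertical) for the 64 snoRNA genes, with point area growing with summed reads. SNORA11F, SNORA67, SNORA21, SNORD116-29 and SNORA31B lie below 0 on both days, which follows from arms that do not overlap. The points beyond 4 in either direction are genes with 0 reads in 1 of the libraries compared.

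Summed over all 64 genes, the level was lower with the SNHG26 guides on both days. Per 100000 reads of nuclear genes with whole reads, themselves included, snoRNA genes had 378 (95% exact binomial interval 313 to 453) and 307 (251 to 372) with the SNHG26 guides on day 2 and day 3. The control libraries had 472 (394 to 562) and 608 (525 to 701). The means were 343 ± 50.3 and 540 ± 96.2 (SD, n = 2). The two-sided exact permutation p was 0.333, and 2 against 2 libraries can give none smaller. As summed TPM the means were 6269 ± 805 and 9281 ± 1517, with the same exact permutation p of 0.333.

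With the libraries of an arm pooled, the ratio of SNHG26 guides to control was 0.624 (95% interval 0.523 to 0.744, from 221 and 316 reads). On day 2 it was 0.800 (0.617 to 1.04), an interval that holds 1, and on day 3 it was 0.504 (0.392 to 0.643). Without SNORA31B the pooled ratio was 0.630 (0.515 to 0.770). These intervals hold counting error only and leave out the spread between preparations. The whole-read nuclear genes used as the denominator held 30808 and 33748 reads with the SNHG26 guides and 26765 and 30880 with the control guides. They are a small part of all reads, for which TPM times length over all genes gives an upper bound of 947338 to 1220265 per library. Over that bound the snoRNA genes had 11.2 and 8.52 reads per 100000 with the SNHG26 guides and 13.4 and 16.6 with the control guides.

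By family, SNORA genes had a pooled ratio of 0.584 (0.478 to 0.712) and SNORD genes 0.757 (0.509 to 1.12). For SNORA it was 0.778 (0.582 to 1.04) on day 2, which holds 1, and 0.445 (0.333 to 0.592) on day 3. The 11 genes of biotype scaRNA had 0.693 (0.504 to 0.952), from 30 and 43 reads with the SNHG26 guides and 40 and 54 with the control guides. By day their ratio was 0.652 (0.392 to 1.07) on day 2 and 0.729 (0.476 to 1.11) on day 3, and both intervals hold 1. Whether the families differ in the ratio was not tested. SCARNA22, made from an intron of NSD2, had 142 of the 167 scaRNA reads, more than any of the 64 snoRNA genes. Its TPM was 1575 and 1933 with the SNHG26 guides and 2185 and 2364 with the control guides (log2 difference -0.38, SE 0.14, limma adjusted p 0.935).

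Of the 6 other short RNA biotypes read, 4 were lower per 100000 with the SNHG26 guides on both days, as the snoRNA genes were. These were scaRNA, mitochondrial tRNA, snRNA and rRNA pseudogenes. Per 100000, the 12 snRNA genes had 19.5 and 17.8 reads against 22.4 and 42.1, and the 9 rRNA pseudogenes 29.2 and 17.8 against 44.8 and 19.4. As reads these were 6 and 6 against 6 and 13 for snRNA, and 9 and 6 against 12 and 6 for rRNA pseudogenes. The arms thus tie in reads for snRNA on day 2 and for rRNA pseudogenes on day 3, where only the denominators set them apart. Per 100000 again, the 3 vault RNA genes had 526 and 391 with the SNHG26 guides and 422 and 359 with the control guides. They were higher with the SNHG26 guides on each day. In the same unit, the 15 mitochondrial tRNA genes had 45.4 and 32.6 against 70.9 and 55.0. The 23 misc_RNA genes had 182 and 121 per 100000 against 176 and 159, higher on day 2 and lower on day 3. None of these differences was tested.

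**Figure D4:**
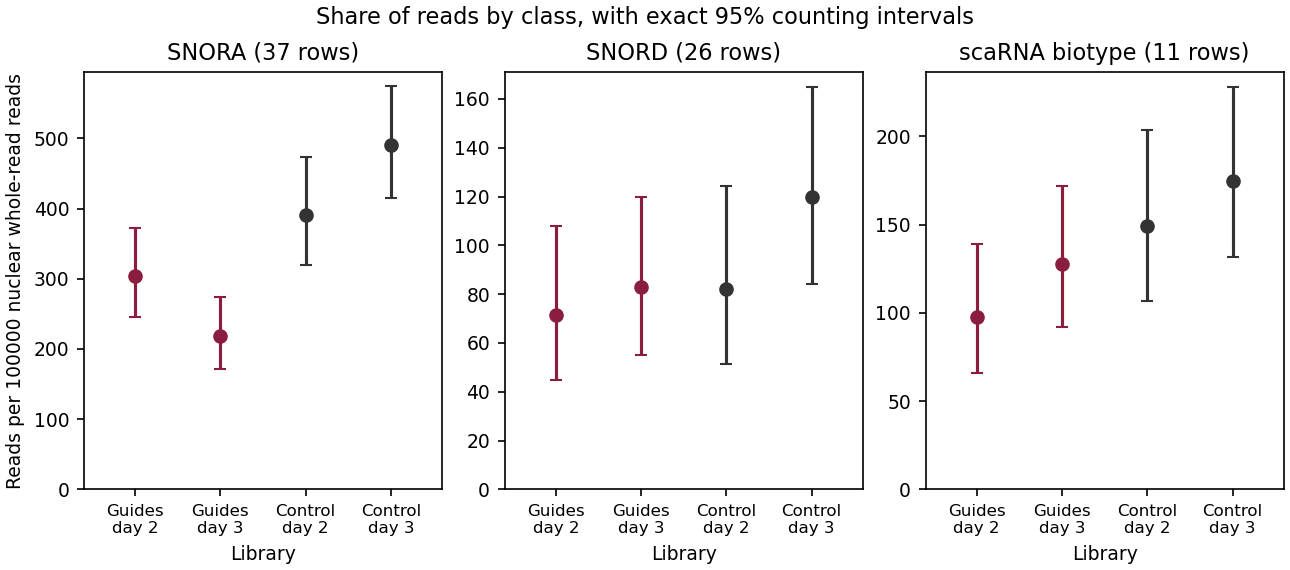
Reads per 100000 reads of nuclear whole-read genes for SNORA, SNORD and scaRNA-biotype genes in each library (each panel has its own vertical axis from 0), with exact 95% intervals that cover counting error only. SNORA genes lie at 304 and 219 with the SNHG26 guides and at 391 and 490 with the control guides, and the SNORD intervals of all 4 libraries overlap.

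The median log2 difference of the 64 genes was -1.03, with 0.0414 over all genes tested. Within day 2 and day 3 taken alone, the medians of the 64 were 0 and -0.0197, beside 0 and 0.0336 over all genes tested. A gene without a read on a day counts as 0 in these daily medians. Over the 38 genes read in a single library, where a difference is set by 1 or 2 reads against 0, the median was -2.82. Over the 12 genes with a read in every library, the median was -0.85, with -0.48 on day 2 and -1.23 on day 3. Those 12 were chosen by their reads in all libraries, so this median describes them and supports nothing further. Without the day 3 control library the median of the 64 was -0.15, and without the day 2 SNHG26-guide library it was -2.76.

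Between the days, 1 of the 64 genes passed a limma adjusted p of 0.05, beside 0.0363% of all genes (3 of 8274). SNORD68, in RPL13, had 1 read in each day 2 library and 0 in each day 3 library (limma adjusted p 0.0463). Both counts are under the floor of 3 reads, and the call was lost under other settings. At an unadjusted p under 0.05 there were 2 of the 64, beside 6.61% of all genes. The other was SNORA26, with a log2 difference of -0.64 (SE 0.13, limma adjusted p 0.403), lower on day 3 in both arms. In 7 genes both day 3 libraries lay below both day 2 libraries in TPM (10.9%, beside 18.4% of all genes), among them SNORA26 and SNORA73B. SNORA24, SNORA58, SNORD14E and SNORD116-6 are counted there too, but in each a day 2 library and a day 3 library had equal reads. Only the TPM worth of 1 read sets those libraries apart. SNORD116-2 and SNORD45A lay the other way (3.12%, beside 17.1% of all genes). Summed reads per 100000 moved in opposite directions, from 378 to 307 with the SNHG26 guides and from 472 to 608 with the control guides. The exact permutation p between the days was 1. In a limma fit of whether the arm difference differed between the days, 3 of the 64 passed an adjusted p of 0.05, beside 0.0967% of all genes, each with 1 read in 1 library of each arm. With 1 library per arm and day this contrast has no replicates of its own, its residual holds the arm and day differences, and the calls were lost under other settings and with any 1 library left out.

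Host genes were then compared with the snoRNA genes inside them. A gene of the table spans 62 of the 64 on the same strand, SNORA11F and SNORA7B being the exceptions, and these 62 have 43 hosts when the highest host is taken for each. Non-coding hosts (SNHG genes and DANCR) hold 18 of them with 181 reads, ribosomal protein genes hold 11 with 35 reads, and other coding genes hold 33 with 257 reads. In GENCODE, 28 of the 64 are intronic to every annotated transcript of their strand, and 32 lie whole within an exon of some transcript there, retained-intron and decay transcripts included. For 7 genes an untranslated region of a host transcript overlaps them.

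Host level and snoRNA reads went together only weakly. Across the 62 genes the Spearman correlation between host TPM and snoRNA reads was 0.182, and the Pearson correlation on a log2 scale 0.243. Both describe genes that share libraries and, in part, hosts. TPT1, the highest host at 4473 TPM, holds SNORA31B with 126 reads, the most of any. By contrast, RPL5 and RPL13 averaged 2529 and 2348 TPM, and SNORD21 and SNORD68 within them had 1 and 2 reads. CWF19L1, with at most 1.77 TPM in any library, hosts SNORA12 with 12 reads. Since the deposited TPM divides by genomic span with introns, host levels are not on the scale of spliced length.

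**Figure D5:**
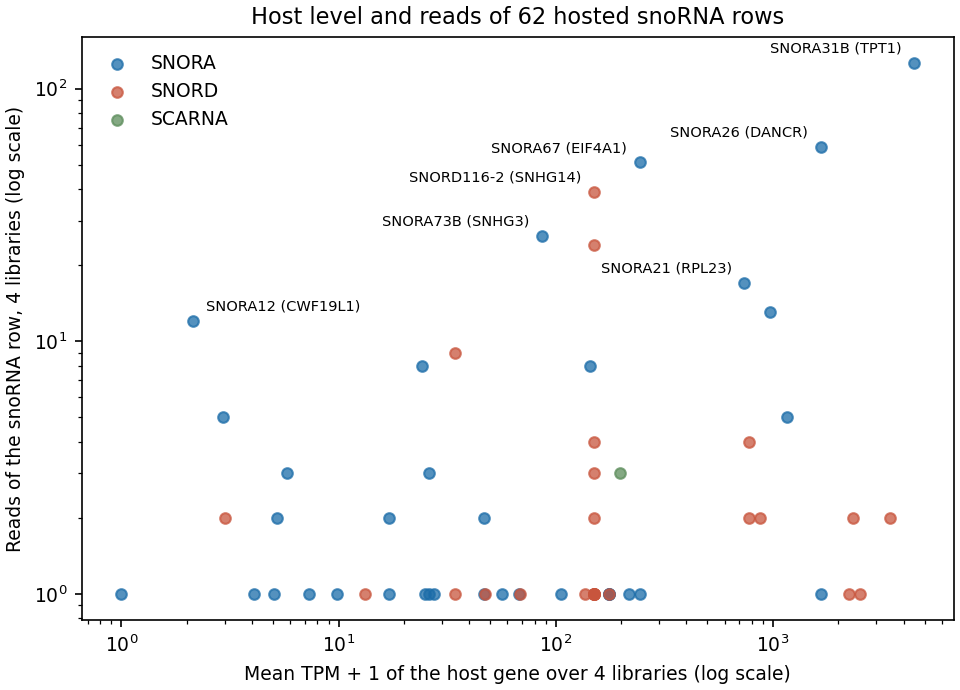
Reads of each hosted snoRNA gene over the 4 libraries against the mean TPM + 1 of its host gene (both axes log), coloured by family, for 62 genes. SNORA31B in TPT1 is highest on both axes, while SNORA12 in the low CWF19L1 has 12 reads.

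No host passed the test between the arms. Of 42 hosts tested, 0 passed a limma adjusted p of 0.05 (smallest 0.935). At an unadjusted p under 0.05 there were 0, beside 4.07% of all genes. The median log2 difference was 0.00617. EIF4A1, host of SNORA67, was at 269 and 235 TPM under SNHG26 guides against 276 and 193 TPM under control guides (log2 difference 0.12, SE 0.25). RPL23, host of SNORA21, was at 727 and 788 TPM against 705 and 730 TPM (0.08, SE 0.13). TPT1 differed by -0.03 (SE 0.13). SNORA67, SNORA21 and SNORA31B had lower values in both SNHG26-guide libraries, while the values of these 3 hosts overlapped between the arms. SNHG14, host of SNORD116-29, did not overlap: both of its values with the SNHG26 guides lay below both control values, by -0.11 on day 2 and -1.17 on day 3 (log2). Whether a snoRNA gene differed from its host was not tested.

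The proteins that bind, assemble and trim snoRNAs were read from 5 lists with 59 genes, of which 46 passed the filter. Between the arms 0 passed a limma adjusted p of 0.05 and 0 had an unadjusted p under 0.05 (4.07% of all genes). The median log2 difference was 0.0611. The 4 core C/D proteins had differences from 0.23 for NOP58 to 0.37 (SE 0.24) for SNU13, with FBL at 0.25 and NOP56 at 0.26. The 4 core H/ACA proteins ran from 0.13 for GAR1 to 0.26 for NOP10, with DKC1 at 0.23 and NHP2 at 0.21. FBL, the methyltransferase, was at 58.7 and 44.6 TPM under SNHG26 guides against 58.1 and 31.6 TPM under control guides. DKC1, the pseudouridine synthase, was at 99.2 and 98.8 TPM against 106 and 67.0 TPM. On day 2 the 8 differences ran from -0.71 for GAR1 to 0.13 for NOP58, with NOP56, DKC1 and NOP10 also below 0, and on day 3 all 8 were above 0. Between the days 0 of the 46 passed, beside 0.0363% of all genes. At an unadjusted p under 0.05 there were 2 of the 46, beside 6.61% of all genes. These were RUVBL2, an assembly factor, and EXOSC3, an exosome subunit.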

How the data were processed

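Poly(A) RNA of 4 H9 libraries was reverse-transcribed from oligo-dT with strand switching, amplified for 14 cycles and sequenced on nanopores, per the labels' protocols. Reads were mapped with minimap2 2.24-r1122 on GRCh38, per the submitters' processing notes. The counting tool, its annotation and its use of strand are not given in the sources used here. The authors deposited TPM per gene, without read counts. TPM times gene length was found to step in whole units for short genes, so 1 read per library was taken from other short RNA genes and reads were recovered for the 64 snoRNA genes (tolerance 0.0001 read). Nuclear genes with whole reads served as the denominator.

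Differences were tested with limma 3.58.1 (R 4.3.3, trended eBayes) on log2(TPM + 1) over the 8274 genes whose mean reached 1 TPM, with Benjamini-Hochberg adjustment over all of them, by arm and by day in separate fits. Fold changes on this scale are understated for genes of low TPM. For the short snoRNA genes a single read is worth many TPM, so a read against none gives a large difference. Sums were tested with exact permutations (scipy 1.17.1). Intervals are 95% exact binomial ones. P-values measure only the spread between these libraries, which may be technical. The libraries of an arm differ in day and those of a day differ in arm, so the spread within a group holds that difference too. The code was tested on simulated data.

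The named genes were those with a read in all libraries, the 15 with the most reads, those past the threshold, and those with reads in both libraries of 1 arm or day and 0 in the other. Sequences are shown for those with a read in every library and no overlap with an untranslated region, fewer than that rule allowed. The members and lists were chosen with earlier results of these data known. Same-day libraries of the arms did not deviate together (correlation of deviations 0.0464), so day was not used as a pairing.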

Additional observations from a re-analysis of the deposited data

Results flagged for a closer look

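Of the snoRNA genes, 3 passed a limma fit of the crossed contrast, which asks whether the difference between the arms differs between the days: the mean log2(TPM + 1) of the day 3 SNHG26-guide and day 2 control libraries minus that of the other 2 libraries. The contrast was -5.76 for SNORA44 (limma adjusted p 0.0428), 5.71 for SNORA74D (0.0472) and -6.35 for SNORD35B (0.0426). SNORA44 and SNORD35B each had 1 read in the day 2 SNHG26-guide library and 1 in the day 3 control library. SNORA74D had 1 read in the day 3 SNHG26-guide library and 1 in the day 2 control library. All other counts of the 3 genes were 0, so every count is under the floor of 3 reads. The sizes are set by the TPM worth of 1 read and the pseudocount, and are no measure of a fold. With 1 library per arm and day the contrast has no replicates of its own, and its residual holds the arm and day differences. In limma 0 genes passed under the replicate block, without a trend, without a filter, at a pseudocount of 5 or with any 1 library left out, where 211 to 639 genes had an unadjusted p under 0.05. Over all genes 8 of 8274 (0.0967%) passed, and the contrast was added after the data were seen.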

How the results depend on the processing

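The lower snoRNA sum with the SNHG26 guides kept its direction under every alternative run. With 1 library left out, the difference ran from -4084 to -1939 TPM and from -266 to -129 reads per 100000. Both sums with the SNHG26 guides lay below both control sums, so leaving out 1 library could not reverse it. The replicate block and the limit to whole-read genes repeat the main values, so these runs add no support. The difference between days did not keep its direction. With 1 library left out it ran from -1824 to 2830 TPM and from -118 to 183 reads per 100000. Without the day 2 SNHG26-guide library it was -182 TPM and -14.5 per 100000. Between the arms 0 genes passed under any limma setting, with 170 to 662 at an unadjusted p under 0.05. The 3 genes between the days, SNORD68 among them, became 0 under the replicate block, without a trend, after quantile normalization, without a filter, at pseudocounts of 0.1 and 5, and with each library left out (0 to 0), where 482 to 862 had an unadjusted p under 0.05. The crossed contrast went from 8 genes to 14 at a pseudocount of 0.1, to 13 when the filter was raised to 5 TPM, to 7 after quantile normalization or median ratio scaling, and to 0 under the replicate block, without a trend, without a filter, at a pseudocount of 5 or with any 1 library left out. The block on the day changed no other call. The causes were not tested.

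With 1 library left out, the arm difference changed sign for SNORA26 (-0.21 to 0.49, and -0.15 without the day 3 control library), SNORA73B (-1.95 to 0.52), SNORA12 (-1.65 to 0.81), SNORD45A (-1.29 to 0.12), SNORA58 (-2.52 to 0.038), SNORA51 (-0.95 to 6.72), SNORA7A (-1.53 to 5.66) and SNORD68 (-3.37 to 3.23, and 3.16 without the day 3 SNHG26-guide library). In these fits the lone library is assumed to vary like the others. The SNORD median rose to 1.87 without the day 3 control library. Depth limits single genes, since 34 of the 64 rest on 1 read.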
